A study of Mus musculus with 18 samples.

Results

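The effect of palmitate was set against the effect of retinoic acid gene by gene in NaF, a line grown from mouse mammary carcinoma. The quantity compared was a difference of effects on the log2 scale, (palmitate minus full-medium control) minus (retinoic acid minus charcoal control). A positive difference therefore means that the palmitate effect lay above the retinoic acid effect, and a negative one that it lay below. Only genes with a mean above background in all 4 groups were kept, which left 9129 of the 22180 genes measured. Background was set per group from 1390 olfactory (Olfr) and vomeronasal (Vmn) receptor genes, which such cells are not known to use, as the 95th percentile of their means, and it came to 0.63 with palmitate, 0.59 in full-medium controls, 1.15 with retinoic acid and 1.31 in charcoal controls. Each kept gene with a called difference was then sorted by which treatment effect was itself called, and this is what "carried by" means here.

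The comparison used 12 of the 18 arrays of the series, 3 in each group. Cells of the palmitate group stayed in full medium (DMEM with 10% FBS) and received palmitate at 10 µM for 6 hours, and their controls were untreated cells in the same medium. Cells of the retinoic acid group received all-trans retinoic acid at 1 µM for 6 hours, after the medium had been changed 48 hours earlier to DMEM with 10% charcoal-treated FBS, and their controls were kept in that charcoal-treated serum. The labels do not say whether the controls received a solvent, or whether the 3 replicates of a group were separate cultures, so p-values measure the spread between arrays only. That spread was estimated for each gene from all 18 arrays of the series together. Treatment, dose and serum differ together between the 2 effects. What belongs to the ligand and what to the serum cannot be told apart.

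Palmitate is a saturated fatty acid that cells store, burn or elongate and desaturate, and fatty acids are also natural ligands of the PPAR nuclear receptors. Retinoic acid, the active form of vitamin A, binds the retinoic acid receptors (RAR), which sit with RXR partners on paired half-sites in DNA and switch on target genes such as the retinoic acid-degrading CYP26 enzymes. In mammary carcinoma cells retinoic acid is known for growth inhibition through RAR, while fatty acid-binding protein FABP5 can pass ligands to PPARδ.

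The 2 serum sets differed in the distribution of their values. The median of the kept genes ranged from 3.14 to 3.44 on the 6 full-medium arrays and from 5.03 to 5.31 on the 12 charcoal-serum arrays, so effects are compared between sera here and levels are not. Palmitate replicate 2 stood slightly apart from the other full-medium arrays. Its mean absolute deviation from its group mean was 0.113, against 0.0816 to 0.0934 on the other 5. Of 9 markers of luminal mammary epithelium, 5 lay above background in all 4 groups (Krt8, Krt18, Cdh1, Elf3 and Erbb2), while Krt19, Epcam, Cldn7 and Muc1 did not. No myoepithelial, adipocyte or T cell marker did, and 1 marker each of fibroblasts (Pdgfra), macrophages (Cd68) and endothelium (Cdh5) did. None of the 8 markers above background had a called difference in limma's test, and 2 had an unadjusted p below 0.05.

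The difference between the effects passed an adjusted p of 0.05 for 516 of the 9129 genes above background (5.65%), and for 568 of all 22180 genes (2.56%). It was higher for 105 of the genes above background (1.15%, against 0.491% of all genes) and lower for 411 (4.5%, against 2.07%), so that 79.7% of the called differences were negative. In RNA from whole cultures, fewer expressing cells and less RNA per cell cannot be told apart. The 2 effects had opposite signs in 445 of the 516, against 4632 of all 9129 genes. A call needs a large difference, which itself favours opposite signs, so this excess carries no test. The palmitate effect was called for 150 genes above background (1.64%, against 0.681% of all genes), 32 higher (0.351%, against 0.144%) and 118 lower (1.29%, against 0.537%). The retinoic acid effect was called for 980 (10.7%, against 5.29%), 686 higher (7.51%, against 3.82%) and 294 lower (3.22%, against 1.47%). Palmitate arrays did not overlap their controls for 22.1% of the 9129 genes and retinoic acid arrays did not overlap theirs for 40.1%, and separate arrays of a named gene are to be read against these shares. Over all 9129 genes the effects had a Pearson correlation of 0.0039, a description over genes that share 12 arrays, with an SD over genes of 0.23 for the palmitate effect and 0.34 for the retinoic acid effect.

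The balance of directions rested on the scaling of the arrays. Quantile normalization made 55.6% of the called differences negative over all 18 arrays and 55.5% within each serum, and centring each array on its median made 91.1% negative. Of the differences carried by retinoic acid, 74.9% were negative as reported and 51.3% under either quantile normalization, and of those carried by palmitate 89.4% were, against 80.5% over all 18 arrays and 75.7% within each serum. The number of calls was 1178 without GW1516 replicate 3, an array outside the comparison that adds to the common estimate of spread and deviated from its group mean by 0.231, and 332, 340, 296 and 281 without full-medium control replicate 2 or 3 or retinoic acid replicate 1 or 2.

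Retinoic acid carried 351 of the 516 differences (68.0%), 88 higher and 263 lower. The 263 negative ones were genes that rose with retinoic acid and the 88 positive ones genes that fell. Palmitate carried 66 (12.8%), 7 higher and 59 lower. Both treatments carried 14 (2.71%) in opposite directions, 2 higher and 12 lower, and none of the 12 genes called for both in the same direction had a called difference (3 had one at an unadjusted p below 0.05 in limma's test). For the remaining 85 (16.5%), 8 higher and 77 lower, neither effect was called alone, and the effects had opposite signs in all 85. The median absolute effect of the retinoic acid-carried genes was 0.18 for palmitate and 0.69 for retinoic acid, and that of the palmitate-carried genes was 0.64 for palmitate and 0.17 for retinoic acid. These medians follow from the sorting, the opposite signs of the 85 follow largely from the calling, and neither carries a test. The carrier of some genes moved with the setting while their call held. In 31 settings n-R5s136 stayed carried by palmitate in 15, and Rnu3a, Ptprg, Gatad2b and Kit stayed carried by both in 14, 15, 16 and 17.

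**Figure D1:**
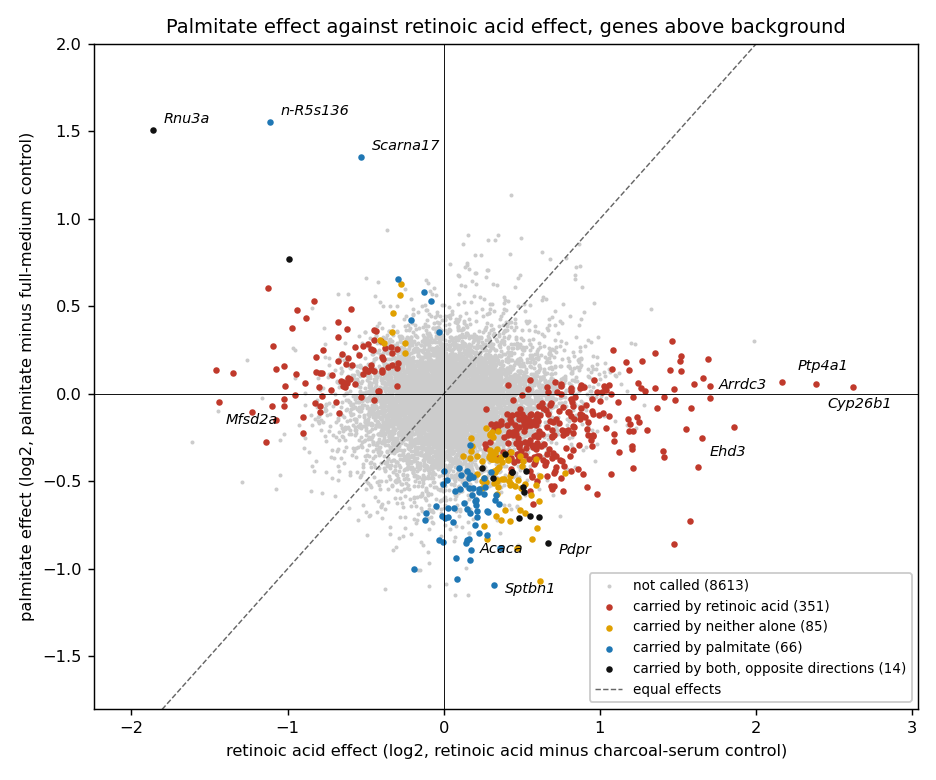
Palmitate effect (vertical axis, log2, palmitate minus full-medium control) against retinoic acid effect (horizontal axis, log2, retinoic acid minus charcoal control) for the 9129 genes above background, coloured by which treatment carries a called difference. The 351 retinoic acid-carried genes lie along the horizontal axis, the 66 palmitate-carried genes along the vertical one, and Rnu3a stands apart at 1.51 and -1.86.

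**Figure D2:**
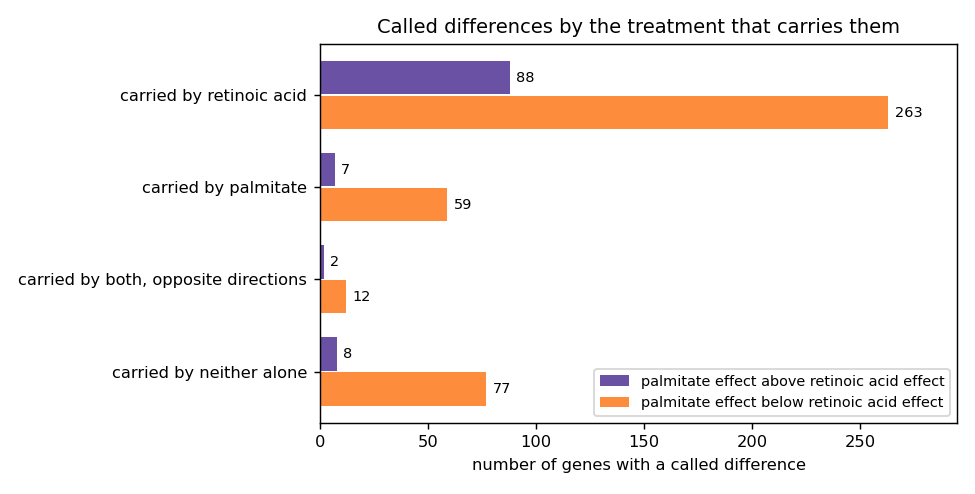
Number of genes with a called difference by carrier, with bars for a palmitate effect above (higher) or below (lower) the retinoic acid effect. Negative differences outnumber positive ones in each class, by 263 to 88 where retinoic acid carries them and by 59 to 7 where palmitate does, but under either quantile normalization 51.3% of the retinoic acid-carried differences were negative.

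Part of the retinoic acid-carried set had low signal in full medium, though a smaller share than of all kept genes. The full-medium control mean lay within 1 log2 unit of background for 51 of the 351 (14.5%), for none of the 66 palmitate-carried genes, and for 26.7% of all kept genes. The 95% interval of the palmitate effect stayed within 1.5-fold either way for 259 of the 351, beside 6289 of all 9129 kept genes. That of the retinoic acid effect did for 60 of the 66, beside 5088 of the 9129. The sorting required the other effect not to be called, so these counts carry no test. Among called genes, Trp53inp1 lay just inside the background rule, 0.0021 log2 units above it in its lowest group with a difference of -1.04, and Ralgapa1 lay just outside, 0.0063 below it with a difference of -0.90.

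Among RAR targets, Cyp26b1, which encodes an enzyme that breaks down retinoic acid, had the largest retinoic acid-carried difference. It had log2 values of 2.12, 2.09 and 2.04 with palmitate, against 2.09, 1.96 and 2.07 in full-medium controls. It had 6.21, 6.06 and 5.83 with retinoic acid, against 3.41, 3.10 and 3.71 in charcoal controls. The full-medium groups overlapped, and every retinoic acid array lay above every charcoal control. The palmitate effect was 0.04 ± 0.17 (SE, n = 3 arrays a group throughout) and the retinoic acid effect 2.62 ± 0.17, a difference of -2.58 ± 0.24 (95% interval -3.08 to -2.08, adjusted p = 1.13e-05). Cyp26b1 (Entrez 232174) lies on chromosome 6 from 84571414 to 84593908 on GRCm38.p6, as do all positions below.

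Of 17 measured RAR target genes, 7 were above background in all 4 groups, and Cyp26b1 was the only one with a called difference. The median difference of the 17 was -0.24, beside 0.03 over all genes tested. Tgm2, the tissue transglutaminase gene, had 7.57, 7.70 and 7.60 with palmitate, against 7.24, 7.34 and 7.24 in full-medium controls. It had 8.03, 8.20 and 8.10 with retinoic acid, against 7.40, 7.33 and 7.39 in charcoal controls. All treated arrays of Tgm2 lay above their own controls under both treatments. Its palmitate effect was 0.35 ± 0.08 (adjusted p = 0.051) and its retinoic acid effect 0.73 ± 0.08 (adjusted p = 2.81e-05), and the difference of -0.38 ± 0.11 missed the threshold (adjusted p = 0.086). Rarb, which encodes a retinoic acid receptor, and Nrip1, a nuclear receptor corepressor gene, were under background in full medium and are not among the 9129. Rarb had 0.24, 0.37 and 0.23 with palmitate and 0.23, 0.33 and 0.10 in full-medium controls.

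The promoters of Cyp26b1 and Rarb are shown because retinoic acid receptors bind direct repeats of a half-site, and Rarb is the textbook carrier of one. Both are the 250 bases before the RefSeq start on GRCm38.p6, minus strand, chr6:84593811-84594060 for Cyp26b1 and chr14:16575477-16575726 for Rarb, with a direct repeat in capitals.
Cyp26b1: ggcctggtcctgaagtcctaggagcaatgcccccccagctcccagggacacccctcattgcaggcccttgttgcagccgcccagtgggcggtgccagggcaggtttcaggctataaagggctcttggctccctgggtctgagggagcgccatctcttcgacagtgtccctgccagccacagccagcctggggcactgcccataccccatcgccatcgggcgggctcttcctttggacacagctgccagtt
Rarb: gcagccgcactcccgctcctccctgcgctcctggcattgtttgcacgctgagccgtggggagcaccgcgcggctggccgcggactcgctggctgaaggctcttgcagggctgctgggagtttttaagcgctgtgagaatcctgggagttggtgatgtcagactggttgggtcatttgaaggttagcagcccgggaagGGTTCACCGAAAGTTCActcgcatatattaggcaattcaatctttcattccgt
The half-site searched was AGGTCA, with AGTTCA allowed in its place and GGTTCA as well, in any pair with 1, 2 or 5 bases between, on both strands of windows from 250 bases before to 50 after each start. Windows were given for 64 of the 84 genes named by rule. The Rarb window held a repeat with 5 bases between its half-sites, and no other window of a named gene held any of the 3 spacings. A spacing of 5 was found in 20 of 27025 genes of the whole promoter table (0.074%), and in 0 of the 271 retinoic acid-carried genes with a window. No match says only that these letters are not in these windows.

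Arrdc3 and Ehd3 had 2 further large retinoic acid-carried differences. Arrdc3, an alpha-arrestin that directs receptors to degradation, had 4.09, 3.92 and 3.93 with palmitate, against 3.94, 3.91 and 4.15 in full-medium controls. It had 7.55, 7.59 and 7.54 with retinoic acid, against 5.69, 5.79 and 6.08 in charcoal controls. The arrays of the full-medium groups overlapped and those of the charcoal groups did not. The palmitate effect of Arrdc3 was -0.02 ± 0.11 and the retinoic acid effect 1.71 ± 0.11, a difference of -1.73 ± 0.15 (adjusted p = 7.63e-06). Ehd3, an endosomal recycling protein gene, had the smallest p of all called members named here, with a palmitate effect of -0.25 ± 0.11, a retinoic acid effect of 1.66 ± 0.11 and a difference of -1.91 ± 0.16 (adjusted p = 2.76e-06). Its palmitate arrays read 6.73, 6.52 and 6.48, against 6.85, 6.81 and 6.83 in full-medium controls, and its retinoic acid arrays 8.72, 8.79 and 8.70, against 7.17, 7.10 and 6.98 in charcoal controls. Both pairs of groups were separate, though the palmitate effect of Ehd3 was not called (adjusted p = 0.617).

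Atxn7l1, a relative of the chromatin complex gene Atxn7, had palmitate and retinoic acid effects of 0.07 ± 0.19 and 2.16 ± 0.19, and a difference of -2.10 ± 0.27, which came to -0.90 when all of its probe sets were averaged and was still called. Ptp4a1, a membrane-associated phosphatase gene, had 0.06 ± 0.33 and 2.38 ± 0.33, and a difference of -2.33 ± 0.46 (adjusted p = 0.00969). Its full-medium arrays were widely spread, from 1.75 to 2.45 with palmitate and from 1.49 to 2.49 in controls. Id4, an inhibitor of basic helix-loop-helix factors, differed by -2.04 ± 0.32, and Akap12, a scaffold of protein kinase A, by -1.78 ± 0.22. Dzip1, a ciliary gene, differed by -1.75 ± 0.26, but its full-medium values of 0.63 to 1.09 lay near background. The T cell receptor segment Trav9d-3 differed by -2.05 ± 0.41, and by -0.32 when all of its 5 probe sets were averaged, where the call was lost. The pseudogene Mcpt-ps1, a relative of mast cell protease genes, differed by -2.33 ± 0.41, with probes that may be shared with its relatives. Its retinoic acid effect was 1.47 ± 0.29 and its palmitate effect -0.86 ± 0.29, which was not called (adjusted p = 0.317). Its palmitate arrays of 3.11, 1.86 and 3.19 all lay below their controls of 3.47, 3.30 and 3.97.

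Mir130a was the 1 microRNA gene called. Its probe set is annotated to the hairpin gene, chr2:84741115-84741178 on the minus strand, and does not tell the mature strands apart. RefSeq gives these as follows, with the seed (bases 2 to 8) in capitals, since the seed is what pairs with targets.
mmu-miR-130a-3p: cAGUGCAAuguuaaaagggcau
mmu-miR-130a-5p: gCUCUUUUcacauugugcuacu
Mir130a had 2.03, 1.11 and 2.56 with palmitate, against 2.51, 2.15 and 3.22 in full-medium controls, and these overlapped. It had 3.61, 3.68 and 3.27 with retinoic acid, against 2.27, 1.77 and 1.77 in charcoal controls, which did not overlap. The palmitate effect was -0.73 ± 0.30 (adjusted p = 0.562) and the retinoic acid effect 1.58 ± 0.30, a difference of -2.31 ± 0.43 (adjusted p = 0.00631).

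**Figure D3:**
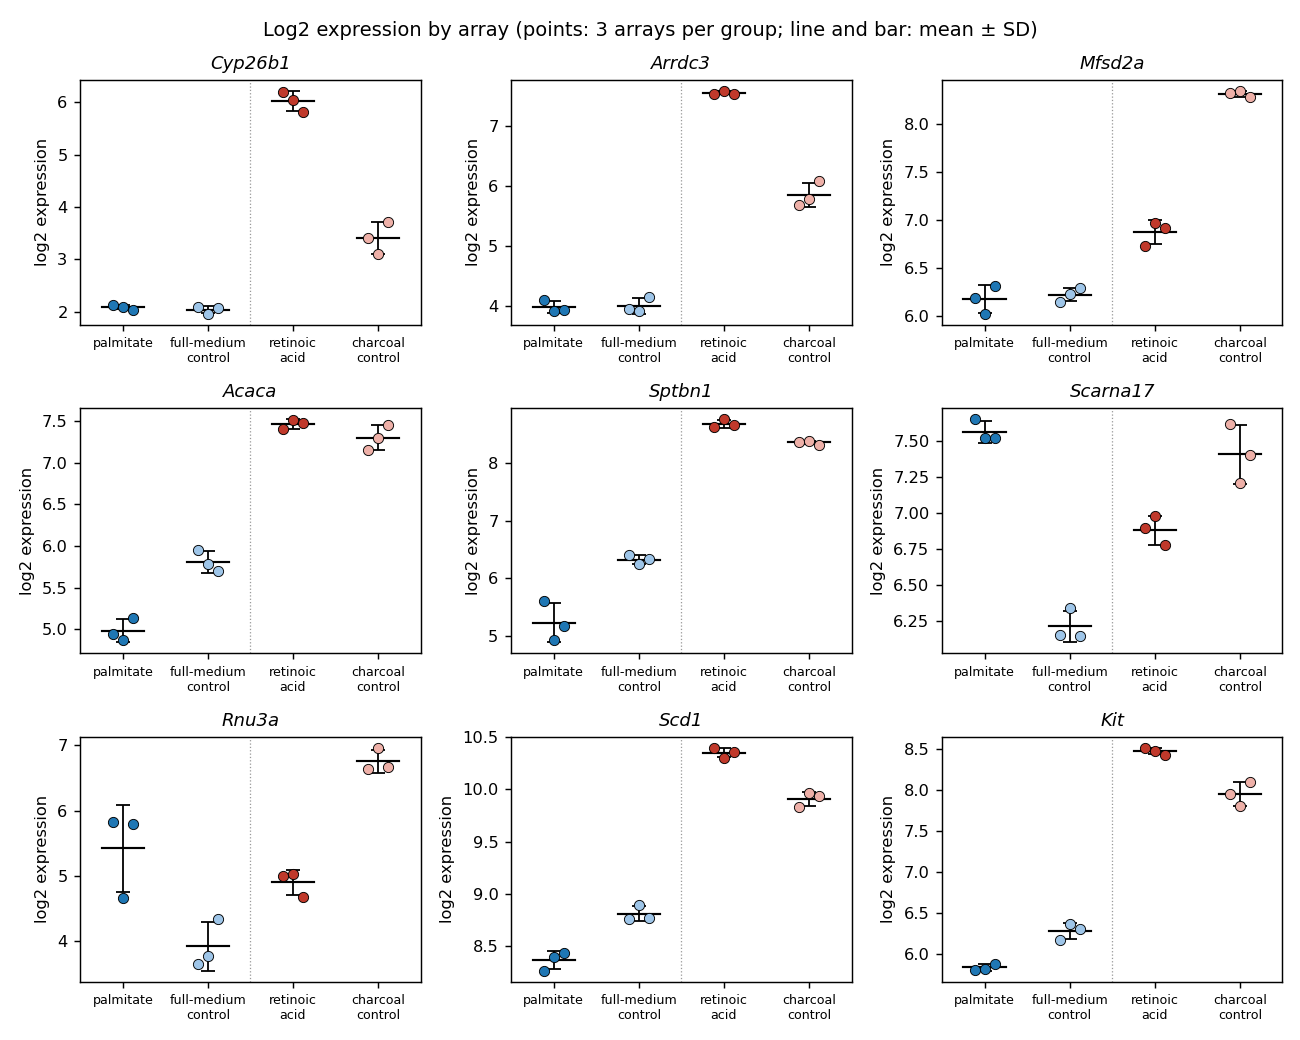
Log2 expression on each array for 9 named genes, with palmitate and full-medium control to the left of the dotted line and retinoic acid and charcoal control to its right (points, 3 arrays per group, with mean ± SD). Cyp26b1, Arrdc3 and Mfsd2a separate only on the right, Acaca separates only on the left, and Rnu3a, Scd1 and Kit move in opposite directions on the 2 sides.

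Genes of fatty acid synthesis and targets of the sterol-sensing receptor LXR formed the list with the most called members, all of them negative. Of 19 measured, 15 were above background and 5 had a called difference, beside 5.65% of all genes above background, the share against which the count of each list is to be read. They were 3 carried by retinoic acid (Abca1, Elovl5 and Elovl6), 1 by palmitate (Acaca) and 1 by both (Scd1). The median difference of the 19 was -0.36. Acaca encodes acetyl-CoA carboxylase, which makes the malonyl-CoA that feeds fatty acid synthesis. It had 4.95, 4.87 and 5.14 with palmitate, against 5.96, 5.78 and 5.70 in full-medium controls, with no overlap. It had 7.40, 7.51 and 7.48 with retinoic acid, against 7.15, 7.30 and 7.45 in charcoal controls, which overlapped. Acaca fell by 0.83 ± 0.11 with palmitate (adjusted p = 0.00106), its retinoic acid effect was 0.16 ± 0.11 (adjusted p = 0.512), and the difference was -0.99 ± 0.15 (adjusted p = 0.00136).

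Scd1, the desaturase that turns palmitoyl and stearoyl chains into monounsaturated ones, moved in opposite directions. It had 8.27, 8.40 and 8.44 with palmitate, against 8.77, 8.90 and 8.77 in full-medium controls. It had 10.39, 10.30 and 10.36 with retinoic acid, against 9.84, 9.96 and 9.94 in charcoal controls. Neither pair of groups overlapped. Scd1 fell by 0.44 ± 0.08 with palmitate (adjusted p = 0.0124) and rose by 0.44 ± 0.08 with retinoic acid (adjusted p = 0.00348), a difference of -0.88 ± 0.12 (adjusted p = 0.000452). The elongase gene Elovl5 had a palmitate effect of -0.36 ± 0.11, which was not called (adjusted p = 0.234), and a retinoic acid effect of 0.72 ± 0.11, which was, and Elovl6 had -0.39 ± 0.14 and 0.58 ± 0.14 with the same calls. Abca1, the cholesterol exporter gene, differed by -1.44 ± 0.22, but its full-medium arrays lay between 0.61 and 0.92, close to the background of 0.63 and 0.59, which left little room for a fall to be measured. The regulator Srebf1 differed by -0.53 ± 0.16 and was not called (adjusted p = 0.0976).

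The other lipid lists had few calls. None of 19 cholesterol synthesis genes, all above background, had a called difference in limma's test (4 at an unadjusted p below 0.05), and their median difference was 0.06. Of 14 fatty acid oxidation genes above background, 1 had one, the coactivator gene Ppargc1a (-0.51 ± 0.12, adjusted p = 0.0294), whose call was lost in 10 of the 12 fits that left out 1 array. Among lipid uptake and droplet genes, 2 of 15 above background were called. Mfsd2a, a transporter of lysophospholipids, had 6.19, 6.03 and 6.31 with palmitate, against 6.15, 6.24 and 6.29 in full-medium controls, which overlapped. It had 6.73, 6.97 and 6.92 with retinoic acid, against 8.32, 8.35 and 8.28 in charcoal controls, which did not. The palmitate effect of Mfsd2a was -0.05 ± 0.13, and it fell by 1.44 ± 0.13 with retinoic acid, a difference of 1.39 ± 0.18 (adjusted p = 0.000439). Lpin1, a phosphatidate phosphatase gene, differed by -0.92 ± 0.21 (adjusted p = 0.0195) with neither effect called, and its call was lost in 4 of the 12 fits without 1 array and when arrays were centred on their medians.

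Of 18 PPAR targets measured, 11 were above background and none had a called difference in limma's test, with 2 at an unadjusted p below 0.05. The median difference of the 18 was 0.00 to 2 decimals. Plin2, a lipid droplet coat gene, had a palmitate effect of 0.38 ± 0.16 and a retinoic acid effect of 0.46 ± 0.16, with a difference of -0.08 (95% interval -0.54 to 0.39). Cpt1a, the gatekeeper of mitochondrial fatty acid import, had -0.16 ± 0.10 and -0.01 ± 0.10, with a difference of -0.15 (95% interval -0.45 to 0.15). These intervals still allow differences of that size in either direction. Of the ligand carriers and receptors, Fabp5 differed by 0.11 (95% interval -0.42 to 0.63), Ppard by -0.29 (-0.75 to 0.17) and Rara by -0.49 (-0.96 to -0.02), with adjusted p of 0.932, 0.681 and 0.372. Fabp5 read 2.75, 2.46 and 2.39 with palmitate, against 2.36, 2.88 and 2.48 in full-medium controls, and 3.95, 4.22 and 4.16 with retinoic acid, against 4.08, 4.50 and 4.19 in charcoal controls, so that both pairs overlapped. Of 7 retinoid handling genes above background, 1 was called. Rxrb, a partner of both RAR and PPAR, rose by 0.66 ± 0.14 with palmitate (adjusted p = 0.0309), its retinoic acid effect was -0.29 ± 0.14 (adjusted p = 0.299), and the difference was 0.95 ± 0.20 (adjusted p = 0.0121). Its call was lost when arrays were centred on their medians (adjusted p = 0.0839), and it was carried by palmitate in 21 of 31 settings.

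The called genes of the growth arrest and replication lists were carried by retinoic acid, a label set against palmitate only. Levels of Cdkn1b and Cdc6 with 2 other ligands in charcoal-treated serum are given under other observations. Of 13 growth arrest and apoptosis genes above background, 3 had a called, negative difference. These were Trp53inp1 (-1.04 ± 0.22), a target of p53, Bcl2 (-0.98 ± 0.20), an inhibitor of apoptosis, and Cdkn1b (-0.86 ± 0.15, adjusted p = 0.00302), an inhibitor of cyclin-dependent kinases. Cdkn1b had 3.63, 3.61 and 3.51 with palmitate, against 3.62, 3.89 and 3.72 in full-medium controls, with a slight overlap. It had 6.91, 7.12 and 7.11 with retinoic acid, against 6.39, 6.26 and 6.39 in charcoal controls, with none. The call on Trp53inp1 was lost under both quantile normalizations (adjusted p up to 0.0892) and without retinoic acid replicate 1. The Bcl2 difference came to -0.43 when both of its probe sets were averaged, and was then no longer called. Of 22 DNA replication and mitosis genes, all above background, none was called for palmitate, and 1 rose and 8 fell with retinoic acid. Over all genes above background, 1.64% were called for palmitate, and 7.51% rose and 3.22% fell with retinoic acid. Of the 22, 2 had a called difference. These were the origin licensing genes Mcm5 (0.62 ± 0.09, adjusted p = 0.000829) and Cdc6 (0.67 ± 0.16, adjusted p = 0.0276). The call on Mcm5 was lost when arrays were centred on their medians (adjusted p = 0.051), and that on Cdc6 in 7 of 12 fits without 1 array.

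The called stress and redox genes were carried by retinoic acid, again as set against palmitate only. Levels of Ero1a and Ddit3 with the other ligands are given under other observations. Ero1a, the oxidase that supplies disulfide bonds in the endoplasmic reticulum, had a palmitate effect of -0.12 ± 0.07 and a retinoic acid effect of 0.89 ± 0.07, a difference of -1.01 ± 0.10 (adjusted p = 1.5e-05). Ero1a read 7.14, 7.02 and 6.95 with palmitate, against 7.18, 7.18 and 7.13 in full-medium controls, and 9.42, 9.48 and 9.37 with retinoic acid, against 8.48, 8.49 and 8.63 in charcoal controls. Its palmitate arrays overlapped their controls at 7.14 and 7.13, and its retinoic acid arrays did not overlap theirs. With Ddit3, a stress-induced transcription factor gene (-0.84 ± 0.21), it was 1 of 2 called among 20 genes of the integrated stress response and the endoplasmic reticulum. Among 13 alpha-arrestin and FOXO target genes above background, Arrdc3, Sesn3 (-0.94 ± 0.17) and Txnip (-0.54 ± 0.14) were called, and the median of the 14 measured was -0.46. Ddit3 lost its call in 9 and Txnip in all of the 12 fits without 1 array. None of 10 NRF2 and AhR targets, 5 interferon response genes and 5 NF-kB and cytokine genes above background had a called difference in limma's test, with 2, 0 and 2 at an unadjusted p below 0.05.

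Matrix, Notch, hypoxia and immediate early genes had a few calls each. Postn, a matrix protein gene, differed by -1.49 ± 0.31 and Jag1, a Notch ligand gene, by -1.02 ± 0.24, both carried by retinoic acid and both within 0.6 log2 units of background on every full-medium array. In the TGF-beta and matrix list, 4 of 12 genes above background were called, namely Id4, Postn and Tgfb2 (-0.65 ± 0.15) as negative and Id2 (0.47 ± 0.11) as positive. In the hypoxia and glycolysis list, 2 of 13 genes above background were called, both negative, P4ha1, a collagen prolyl hydroxylase gene (-0.84 ± 0.13), and Slc2a1, the glucose transporter gene (-0.36 ± 0.09). Jag1 was the 1 called of 8 Notch pathway genes above background. Klf10, an immediate early factor gene that differed by -0.57 ± 0.15, was the 1 called of 21 in its list, a share below the 5.65% of all genes above background. The calls on Tgfb2, Id2, Jag1, Slc2a1 and Klf10 were lost in 6, 10, 8, 10 and 9 of the 12 fits without 1 array.

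The lists of transcription, splicing and ribosome genes held several of the named positive differences. Ppp1r10, a targeting subunit of protein phosphatase 1 in transcription termination, had 3.83, 3.50 and 3.44 with palmitate, against 3.55, 3.41 and 3.41 in full-medium controls, which overlapped. It had 5.09, 4.73 and 4.47 with retinoic acid, against 6.08, 6.35 and 6.23 in charcoal controls, which did not. It fell by 1.46 ± 0.18 with retinoic acid, its palmitate effect was 0.14 ± 0.18, and the difference was 1.59 ± 0.26 (adjusted p = 0.00193). Of 16 elongation control genes, 4 were called, with Nelfa, a subunit of the pausing factor NELF, also positive (1.12 ± 0.22), and the super elongation complex scaffold genes Aff4 (-1.01 ± 0.20) and Aff1 (-0.91 ± 0.23) negative. Aff1 lost its call in all 12 fits without 1 array, and Nelfa when arrays were centred on their medians. The splicing factor gene Srsf6 differed by 0.92 ± 0.16, the ribosome biogenesis genes Bop1 and Nop2 by 1.22 ± 0.17 and 1.03 ± 0.12, and all 3 were carried by retinoic acid. Srsf6 differed by 0.53 when all of its probe sets were averaged, and its call was lost there and when arrays were centred on their medians. Bop1 and Nop2 were 2 of 20 genes of ribosome biogenesis, whose median difference was 0.28. The antisense transcript Map2k3os differed by 1.73 ± 0.31, and with the strand of its probes not given in the sources used here, signal from its partner Map2k3 cannot be told apart.

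**Figure D4:**
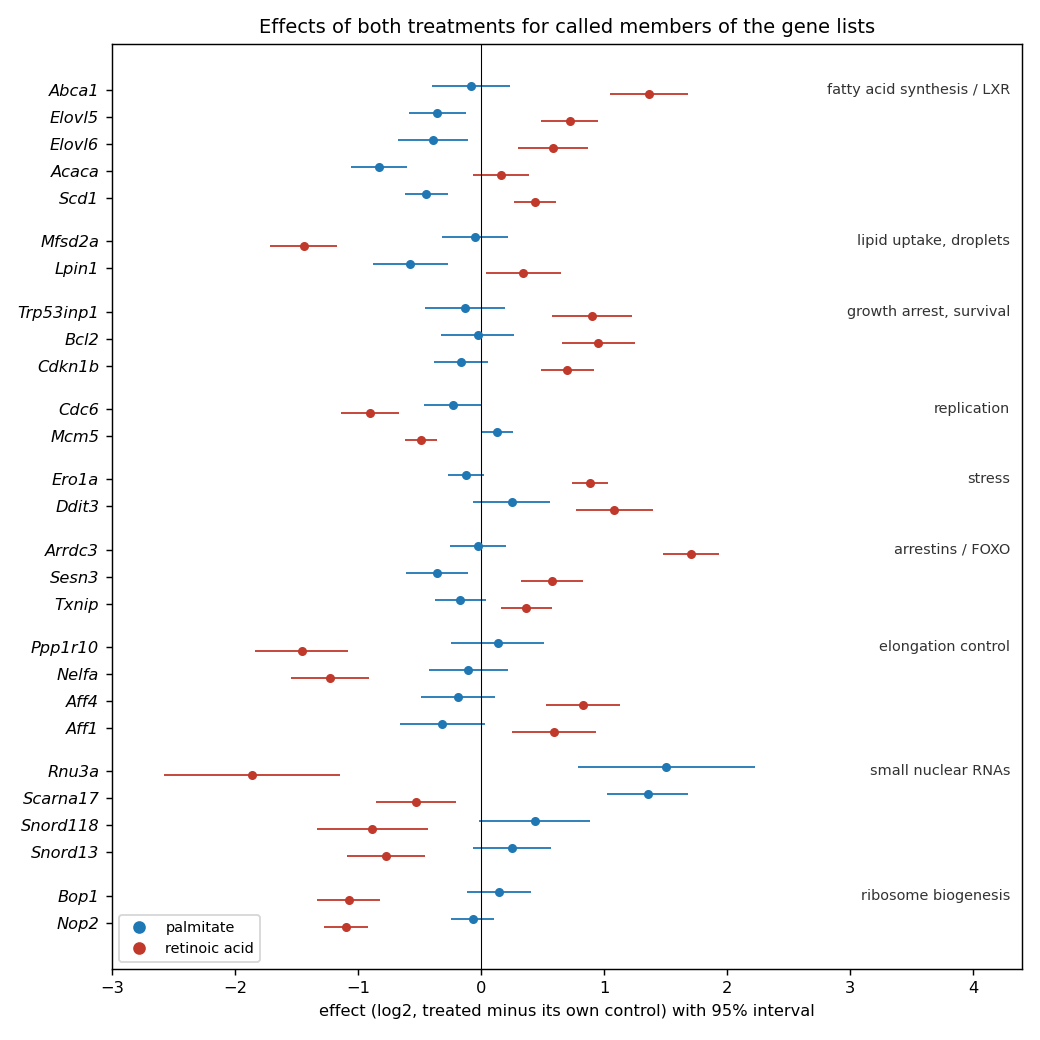
Palmitate effects (blue) and retinoic acid effects (red) in log2 units with 95% intervals for called genes of 9 gene lists. The retinoic acid interval excludes 0 for Abca1, Arrdc3, Mfsd2a, Ppp1r10 and Nop2 while the palmitate interval covers it, Acaca shows the reverse, and Scd1 and Rnu3a have intervals on opposite sides of 0.

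Rnu3a, a small nuclear RNA, had the largest positive difference of the called genes above background. Of 14 small nucleolar and Cajal body RNAs measured and above background, 4 were called, all positive, and their median difference was 0.92. The median was 0.03 over all genes tested and -0.09 over genes above background, the latter 0.04 under quantile normalization over all 18 arrays. Rnu3a, the U3 RNA that guides cleavage of the ribosomal RNA precursor, had 5.82, 4.65 and 5.79 with palmitate, against 3.64, 3.76 and 4.34 in full-medium controls. It had 4.99, 5.03 and 4.67 with retinoic acid, against 6.64, 6.96 and 6.66 in charcoal controls. No arrays overlapped within either serum, but palmitate replicate 2 lay more than 1 unit below replicates 1 and 3. Rnu3a rose by 1.51 ± 0.34 with palmitate (adjusted p = 0.0487) and fell by 1.86 ± 0.34 with retinoic acid (adjusted p = 0.00292), a difference of 3.37 ± 0.48 (adjusted p = 0.00085). Scarna6, a Cajal body RNA, was the other positive gene carried by both, with 0.77 ± 0.13 for palmitate, -0.99 ± 0.13 for retinoic acid and a difference of 1.76 ± 0.19 (adjusted p = 6.12e-05).

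Scarna17, another Cajal body RNA, was carried by palmitate. It had 7.65, 7.53 and 7.52 with palmitate, against 6.15, 6.34 and 6.14 in full-medium controls, and 6.90, 6.98 and 6.78 with retinoic acid, against 7.62, 7.21 and 7.41 in charcoal controls. The groups were separate in both sera. Scarna17 rose by 1.35 ± 0.16 with palmitate (adjusted p = 0.00051), its retinoic acid effect of -0.53 ± 0.16 missed the threshold (adjusted p = 0.0578), and the difference was 1.88 ± 0.22. The 5S ribosomal RNA gene n-R5s136 had the largest palmitate-carried difference, 2.67 ± 0.47, with effects of 1.55 ± 0.33 and -1.11 ± 0.33 (adjusted p = 0.0356 and 0.0626). It and Rnu3a belong to families with near-identical copies, which these probes may not separate. Snord118 and Snord13, guides of ribosomal RNA maturation, differed by 1.32 ± 0.30 and 1.03 ± 0.22, carried by retinoic acid, and lost their calls in 5 and 1 of the 12 fits without 1 array. Of the 105 positive calls, 5 were annotated as small nucleolar, 2 as small nuclear, 2 as guide and 1 as ribosomal RNA, and of the 411 negative calls none was. The share of these RNA types among all genes above background was not counted, so these counts only describe the calls.

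The palmitate-carried genes with negative differences were led by the membrane skeleton gene Sptbn1, a beta-spectrin. It had 5.60, 4.93 and 5.16 with palmitate, against 6.40, 6.25 and 6.33 in full-medium controls, with no overlap. It had 8.63, 8.76 and 8.65 with retinoic acid, against 8.37, 8.38 and 8.32 in charcoal controls, again with none. Sptbn1 fell by 1.10 ± 0.12 with palmitate (adjusted p = 0.000284), its retinoic acid effect of 0.32 ± 0.12 was not called (adjusted p = 0.141), and the difference was -1.42 ± 0.17 (adjusted p = 0.000141). Tcf20, a transcriptional coregulator gene, had 5.60, 5.34 and 5.59 with palmitate, against 6.36, 6.42 and 6.42 in full-medium controls, and its difference was -1.06 ± 0.16 with a retinoic acid effect of 0.17 ± 0.11. Lig3, a DNA ligase gene, had 3.48, 3.41 and 3.48 with palmitate, against 4.22, 4.27 and 4.29 in full-medium controls, and its difference was -1.09 ± 0.20 with a retinoic acid effect of 0.28 ± 0.14. In both genes every palmitate array lay below every control.

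Palmitate effects of the other named negative genes ranged from -0.79 to -1.06. They were those of Luc7l, a splicing factor gene (difference -1.24 ± 0.20), Gon4l, a nuclear regulator gene (-1.15 ± 0.28), Ric1, a Golgi trafficking gene (-1.12 ± 0.24), Cmtm4, a membrane protein gene (-1.02 ± 0.20), Dhx57, a helicase gene (-1.02 ± 0.25), and Mtmr12, a myotubularin family gene (-0.99 ± 0.20). Gon4l read 0.81, 0.57 and 1.00 with palmitate, close to the background of 0.63, which left little room for its fall to be measured. Gon4l and Dhx57 lost their calls in 8 and 10 of the 12 fits without 1 array. On the positive side, the respiratory chain subunit gene Cox4i1 rose by 0.35 ± 0.06 with palmitate, with a retinoic acid effect of -0.03 ± 0.06 and a difference of 0.38 ± 0.09 (adjusted p = 0.0267), a call that was lost in 8 such fits. It was the 1 called of 20 respiratory chain subunit genes, whose median difference was 0.12.

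The 12 genes that fell with palmitate and rose with retinoic acid included Scd1, Efna5 and Kit. Efna5, a ligand of Eph receptors, had 5.28, 5.20 and 5.35 with palmitate, against 5.87, 6.06 and 6.02 in full-medium controls. It had 8.12, 8.35 and 8.22 with retinoic acid, against 7.65, 7.68 and 7.92 in charcoal controls. It fell by 0.71 ± 0.10 and rose by 0.48 ± 0.10, a difference of -1.19 ± 0.14 (adjusted p = 0.000141). Kit, a receptor tyrosine kinase gene, had 5.81, 5.82 and 5.89 with palmitate, against 6.17, 6.37 and 6.30 in full-medium controls, and 8.51, 8.48 and 8.43 with retinoic acid, against 7.95, 7.81 and 8.09 in charcoal controls. All 4 of these pairs of groups were separate. Kit fell by 0.44 ± 0.10 and rose by 0.52 ± 0.10, a difference of -0.96 ± 0.14 (adjusted p = 0.000831).

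Pdpr, a regulatory subunit of pyruvate dehydrogenase phosphatase, had the largest negative difference of the class at -1.52 ± 0.23 (effects -0.85 ± 0.16 and 0.67 ± 0.16), and Slc25a24, a mitochondrial adenine nucleotide carrier gene, differed by -1.07 ± 0.15. The others included the cytoskeletal linker gene Specc1l (-1.32 ± 0.20), the peptidase gene Tpp2 (-1.25 ± 0.20), the NuRD subunit gene Gatad2b (-1.04 ± 0.17), the receptor phosphatase gene Ptprg (-0.80 ± 0.13), the alpha-spectrin gene Sptan1 and the growth factor gene Tgfb3. This class of 14 came to between 3 and 9 genes without any 1 of 9 arrays.

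Genes carried by neither effect alone had effects of middling size on both sides, with medians of 0.45 for palmitate and 0.34 for retinoic acid in absolute terms. Arhgap28, a GTPase-activating protein gene, had 4.03, 3.0 and 3.92 with palmitate, against 4.45, 4.72 and 4.27 in full-medium controls, and 6.25, 6.29 and 6.31 with retinoic acid, against 5.90, 5.53 and 5.73 in charcoal controls. Its difference was -1.40 ± 0.30 (adjusted p = 0.0152), with effects of -0.83 ± 0.21 and 0.56 ± 0.21 (adjusted p = 0.094 and 0.155). Palmitate replicate 2 was the lowest Arhgap28 array. Nupr1l, a stress gene (-1.69 ± 0.39), Sik2, a salt-inducible kinase gene (-1.37 ± 0.33), and Csnk1g3, a casein kinase gene (-1.35 ± 0.32), lost their calls in 6, 8 and 9 of the 12 fits without 1 array.

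Some genes moved the same way. Of the genes above background, 26 were called for both treatments, which is 17.3% of the 150 called for palmitate and 2.65% of the 980 called for retinoic acid, and 12 of the 26 moved in 1 direction. Of these, 5 rose (Ccpg1os, Cldn3, Crbn, Hsp90b1 and Pnrc2) and 7 fell (Dnmt1, Foxk2, Hip1, Myo10, Pkp4, Ppp1r15b and Slc6a6), all named after their values were seen. Dnmt1, the maintenance DNA methyltransferase gene, fell by 0.50 ± 0.09 with each treatment, and the 95% interval of its difference ran from -0.25 to 0.26. Cldn3, a tight junction gene, rose by 0.41 ± 0.08 with palmitate and 0.76 ± 0.08 with retinoic acid, a difference of -0.35 ± 0.11 (adjusted p = 0.0967). Hsp90b1, a chaperone gene of the endoplasmic reticulum, rose by 0.35 ± 0.07 and 0.60 ± 0.07.

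The called genes differed in the length of DNA they span. Over protein-coding genes above background the median span from start to end was 22.7 kb, with 31.7 kb for the 5230 with a negative difference, called or not, and 13.15 kb for the 3424 with a positive one. It was 52.8 kb for the 253 retinoic acid-carried genes with a negative difference and 10.8 kb for the 82 with a positive one. It was 70.0 kb for the 59 palmitate-carried genes with a negative difference, 67.5 kb for the 12 carried by both and 82.1 kb for the 76 carried by neither alone. Across 8654 protein-coding genes, span had a Spearman correlation of -0.31 with the palmitate effect, 0.27 with the retinoic acid effect and -0.41 with their difference. These describe genes measured on the same 12 arrays and are given without a test. The correlation with the difference was -0.36 under quantile normalization over all 18 arrays. The part of gene span in the calls was not tested.

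**Figure D5:**
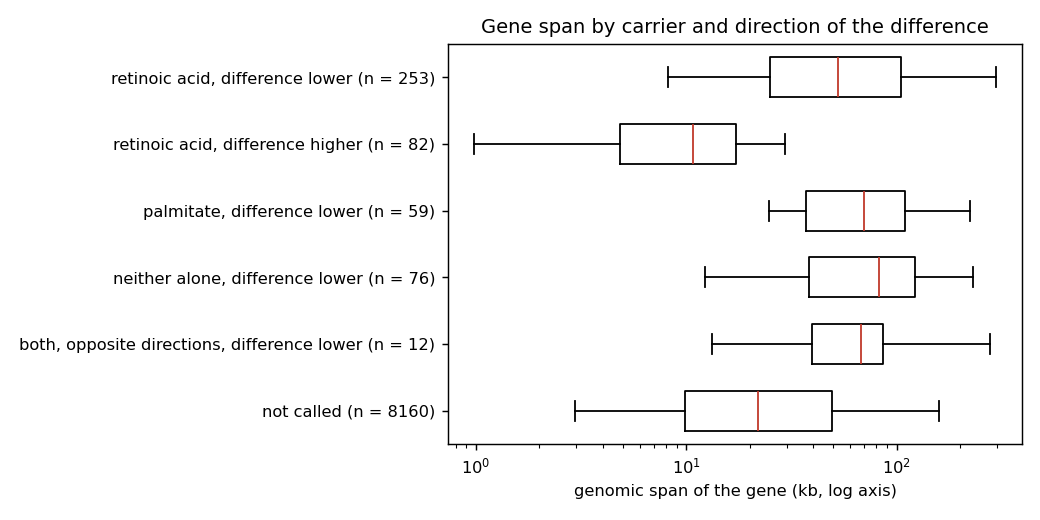
Genomic span (kb, log axis) of protein-coding genes above background by carrier and direction of the difference (box, quartiles with median in red; whiskers, 5th to 95th percentile). Genes with a negative difference have medians of 52.8 to 82.1 kb in every class, and the retinoic acid-carried genes with a positive difference have a median of 10.8 kb, beside 31.7 and 13.15 kb for all genes above background with a negative or positive difference.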

How the data were processed

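Expression was measured on 18 Affymetrix mouse arrays of NaF cells. The values are the log2 values the authors deposited, 1 per probe set and array, and that they are log2 was read from their range. Per the submitters' processing notes Partek was used, and the normalization is not given in the sources used here. Of 41345 probe sets, 23521 with 1 gene symbol were kept, symbols were updated by Entrez number to GRCm38.p6 for 23328, and the brightest probe set was used for the 1082 genes with several. A model with 1 mean per group was fitted in limma 3.58.1 to the 18 arrays together (R 4.3.3, lmFit, eBayes with an intensity trend, 12 residual degrees of freedom), and the 3 contrasts were tested 2-sided with Benjamini-Hochberg adjustment over all 22180 genes at 0.05. A difference was carried by the treatment whose own effect passed that threshold.

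In the palmitate-minus-retinoic acid contrast of data simulated with 22180 genes, 28 of 50 differences of 1 log2 unit and 47 of 50 of 2 units were called, with 4 false calls among 21980 unchanged genes. The simulated noise was independent between genes, with 1 spread per gene and no deviation shared across an array. These counts therefore do not give the error rate of the real arrays. Promoters and microRNAs are RefSeq sequences on GRCm38.p6. Named genes were, with Gm, LOC and Rik models and accessions passed over, the 12 largest called differences each carried by retinoic acid, by palmitate and by both, the 4 largest carried by neither, up to 4 called genes per list, and 16 fixed genes, 84 in all, of which 1 is not reported here. The genes compared and the gene lists were chosen with earlier results of these data known. Alternatives changed the arrays fitted, variance model, scaling, probe set choice, background rule, threshold and replicates. No pairing by replicate number entered the fit. The number of arrays limits the precision. Probe sets with several gene symbols or none were not used.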

Additional observations from a re-analysis of the deposited data

How the results depend on the processing

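The counts of called genes moved with the spread estimate and the scaling, while none of the 75 named genes with a called difference changed sign in the 31 settings. The order of counts below is the difference, the palmitate effect, the retinoic acid effect, then differences carried by retinoic acid, by palmitate, by both in opposite directions and by neither alone, with 516, 150, 980, 351, 66, 14 and 85 as reported. Fitting only the 12 arrays gave 881, 294, 1473, 591, 125, 42 and 120. Leaving out GW1516 replicate 3 gave 1178, 436, 1663, 740, 171, 89 and 172, and leaving out palmitate replicate 2 with it, an alternative chosen after seeing the data, gave 1071, 362, 1870, 734, 142, 79 and 111 with 64.8% of the differences negative. Array weights gave 1272, 642, 1607, 764, 233, 96 and 174. Adjusting p over the 9129 genes only gave 855, 266, 1359, 562, 120, 36 and 134, and an adjusted p below 0.01 gave 175, 55, 439, 119, 23, 2 and 31. With a fold of at least 1.5, the palmitate and retinoic acid effects were called for 86 and 566 genes. Centring arrays on their medians gave 236, 17, 597, 170, 11, 1 and 54. Quantile normalization over all 18 arrays left 41 differences carried by palmitate and 7 by both, with 581 called in all.

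Same-numbered arrays did not deviate together (correlations of deviations from -0.23 to 0.08 within a serum, and from -0.12 to 0.17 for differently numbered arrays). These few pairs do not show pairing by number and cannot exclude it. A replicate block gave 329, 85, 713, 223, 39, 6 and 61. Leaving out 1 array at a time gave 281 to 462 differences, 62 to 141 palmitate calls and 486 to 1035 retinoic acid calls, with 172 to 294 differences carried by retinoic acid, 30 to 65 by palmitate, 3 to 17 by both and 54 to 93 by neither. The retinoic acid-carried count moved by more than 1.5 times without full-medium control replicate 2 (231), charcoal control replicate 2 (211) or retinoic acid replicate 1 (181) or 2 (172), and the palmitate-carried count did without palmitate replicate 2 (42), full-medium control replicate 2 (30) or 3 (37) or retinoic acid replicate 2 (40). The cause of these changes was not tested beyond the fewer arrays. Of the 75 named genes with a called difference, 42 kept the call in all 31 settings and 54 in every fit without 1 array. These counts did not apply the background rule to the gene, so settings that changed only that rule could not lose a call. Abca1 and Dzip1 kept theirs throughout, with full-medium control means of 0.82 and 0.92 against a background of 0.59. The 75 also include Rarb and Nrip1, which were under background in full medium.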

Other observations

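Retinoic acid-carried genes also had values on the TTNPB arrays, a synthetic RAR agonist at 1 µM for 6 hours, and on the GW1516 arrays, a PPARδ agonist at the same dose and time. These share the charcoal controls with retinoic acid, so the levels are given side by side with no comparison. Cyp26b1 averaged 4.01 with TTNPB and 3.41 with GW1516, beside 6.03 with retinoic acid and 3.41 in charcoal controls. Arrdc3 averaged 7.22 with TTNPB and 7.27 with GW1516, beside 7.56 with retinoic acid and 5.85 in charcoal controls. In the same order, Cdkn1b averaged 6.93 and 6.99, beside 7.05 and 6.35, and Cdc6 5.66 and 5.61, beside 5.61 and 6.51. Ero1a averaged 9.34 and 9.53, beside 9.42 and 8.53, and Ddit3 4.99 and 4.96, beside 4.95 and 3.86. Abca1 averaged 3.52 and 4.20, beside 4.67 and 3.31, and Jag1 3.81 and 4.32, beside 4.97 and 4.10. Being carried by retinoic acid thus does not mean being particular to it. Rnu3a averaged 4.72 with TTNPB and 4.35 with GW1516, beside 4.90 with retinoic acid and 6.76 in charcoal controls, while n-R5s136 averaged 5.94 and 4.54, beside 4.57 and 5.68.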
